A study of Mus musculus with 9 samples.

Results

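Lcn2, Serpina3n, Cp, Cebpd, Cebpb, Bcl3, Pim1 and Pim3 are acute-phase genes and genes of the IL-6, STAT3 and NF-kB responses, 8 of the 22322 genes in the expression table. They were selected by gene symbol, and they were selected on their measured differences between groups, mainly that between aging RGCs with and without USCs medium. Their own values are therefore given as a description with no p-value. Where members are counted past a threshold, the counts are description too, and p-values were read only for related genes. The study sequenced polyadenylated RNA of purchased mouse retinal ganglion cells (RGCs) of WT genotype in 3 groups of 3 libraries each, which its methods describe as replicated wells. Normal RGCs were grown in complete medium, aging RGCs were treated with D-galactose to make a culture model of ageing, and aging RGCs + USCs medium were treated with D-galactose and then with medium conditioned by human urine-derived stem cells (USCs), from which the stem cells had been removed. The groups thus share the cell source, and D-galactose is common to both aging groups. The comparison of aging with normal RGCs asks what D-galactose changed, and that of the medium with aging RGCs asks what the conditioned medium changed in treated cells. The paper grew the USCs in a medium made for urine stem cells, and no group received such medium unconditioned. Effects of the base medium and of what the stem cells released therefore cannot be told apart. The aging libraries enter both comparisons, and all wells came from a purchased culture, so differences between wells do not stand for differences between animals.

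The acute-phase response is the change in protein secretion that follows infection or injury. Cytokines of the IL-6 family signal through a shared receptor chain to the kinase JAK and the transcription factor STAT3, while IL-1 and TNF act through NF-kB, and the C/EBP transcription factors are made and used downstream of both. The liver is the main source of the secreted proteins, but Lcn2 and Serpina3n are also known in the retina and brain as genes of reactive astrocytes. Lcn2 encodes lipocalin 2, which binds bacterial iron carriers. Serpina3n encodes a secreted inhibitor of serine proteases, and Cp encodes ceruloplasmin, the copper-carrying enzyme that oxidises iron as it leaves the cell. Cebpd and Cebpb encode C/EBP delta and beta, Bcl3 encodes an atypical I-kB protein of the nucleus that binds NF-kB subunits, and Pim1 and Pim3 encode serine/threonine kinases whose transcription cytokines raise.

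The sequences just before the starts of Lcn2 and Serpina3n are shown because these were the members with the largest differences. Both come from the RefSeq promoter table (GRCm38.p6), which held 7 of the 8 members, and both are written in the direction of the gene. Capitals mark matches to the C/EBP motifs TTGCNNAA or TTNNGNAA, or to the STAT motif in which TTC and GAA stand 4 bases apart. The Lcn2 sequence (chr2:32387798-32387989, minus strand, 192 bases) ends just before the first base that an annotated transcript uses as untranslated region. Its upstream portion lies in an exon of another annotated Lcn2 transcript. The Serpina3n sequence (chr12:104406458-104406707, plus strand, 250 bases) overlaps no annotated exon.
Lcn2: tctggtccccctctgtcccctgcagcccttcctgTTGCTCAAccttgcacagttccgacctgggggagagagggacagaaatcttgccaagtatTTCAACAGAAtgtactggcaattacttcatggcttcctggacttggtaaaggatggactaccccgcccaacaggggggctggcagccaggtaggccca
Serpina3n: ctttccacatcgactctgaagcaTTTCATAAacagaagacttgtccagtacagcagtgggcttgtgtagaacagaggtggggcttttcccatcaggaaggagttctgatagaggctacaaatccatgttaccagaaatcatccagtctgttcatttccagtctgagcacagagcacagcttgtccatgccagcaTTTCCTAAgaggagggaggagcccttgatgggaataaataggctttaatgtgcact

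In Lcn2 the C/EBP match, TTGCTCAA, lies 216 to 209 bases before the RefSeq start, and the STAT match follows 156 to 147 bases before it. In Serpina3n the C/EBP matches are TTTCATAA, 227 to 220 bases before the start, and TTTCCTAA, 56 to 49 bases before it, both read on the opposite strand. In the 250 bases before the start, searched on both strands, TTGCNNAA matched in Lcn2 and Cp and in 9.56% of all 32851 promoter windows of the table. A member was named if any of its windows matched, while the shares are per window, and the 7 members have 9 windows. In Cp that match lies only in the window of the RefSeq start at 19957249, which overlaps an annotated Cp exon. The looser TTNNGNAA, which every match of TTGCNNAA also satisfies, matched in Lcn2, Serpina3n, Cp and Pim3 and in 36.8% of windows. The STAT motif with a gap of 4 bases matched in Lcn2 and in 5.85% of windows, and the STAT motif TTCNNNGAA in none of the members and in 7.02% of windows. The NF-kB motif matched in Pim3 and in 7.25% of windows. Such matches describe the letters of these windows only.

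The deposited expected counts summed to between 18189616 and 22342288 per library, and no library stood apart in depth. Of the 11 markers listed for RGCs, 6 were under 1 CPM (counts scaled to library size with TMM factors) in every library. Of these, Pou4f2 and Pou4f3 were at 0 throughout, and Thy1, Sncg and Slc17a6 were among the others. Rbpms, a binding protein used to mark RGCs, was measured at 61.2 ± 0.72 CPM (SD, n = 3) in the normal group, 49.6 ± 1.67 in the aging group and 48.0 ± 3.33 with USCs medium. Isl1, a transcription factor gene of RGCs and other neurons, was at 18.9 ± 2.39, 12.0 ± 0.962 and 13.0 ± 1.01 CPM, and the neurofilament gene Nefl at 63.6 ± 5.38, 38.4 ± 2.68 and 17.3 ± 1.08 CPM in the same order. The listed markers were thus present in part, Rbpms, Isl1 and Nefl among them, and absent or near 0 in part, as for Pou4f2, Pou4f3, Thy1, Sncg and Slc17a6. RGC is used here as the label's name for the culture. Summed over the list, RGC markers reached 139 to 150 CPM in the normal libraries, 99.2 to 103 in the aging libraries and 75.4 to 83.5 with USCs medium. From aging RGCs to USCs medium it was Nefl that fell (log2 fold change -1.15, edgeR adjusted p = 3.99e-13), while Rbpms (-0.05, adjusted p = 0.49) and Isl1 (0.13, adjusted p = 0.314) did not pass the test. The 7 markers of astrocytes and Mueller glia summed to 97.6 to 106, 94.6 to 97.4 and 127 to 129 CPM, and 6 of the 7 were under 1 CPM in every library, Gfap and Aqp4 among them. Nearly all of that sum was Glul, the glutamine synthetase gene. Markers of macrophages and microglia summed to 58.3 to 68.6, 44.5 to 50.8 and 30.6 to 53.3 CPM. Most of that sum was Cd68, which did not pass the test in aging against normal RGCs (0.10, edgeR adjusted p = 0.237), while 4 of 6 tested markers fell past 2-fold there. Lyz2 fell from 15.3 ± 6.50 to 3.16 ± 2.81 CPM (-2.30, adjusted p = 0.000172) and Csf1r from 3.42 ± 0.478 to 1.13 ± 0.941 CPM (-1.61, adjusted p = 0.00111), although neither passed in DESeq2 (adjusted p = 0.0608 and 0.0939). Without aging library 1 the falls were -3.30 and -2.53. Adgre1 went from 57, 19 and 43 counts to 2, 0 and 1, and C1qb from 21, 13 and 11 counts to 0 in every aging library, and the latter did not pass in DESeq2 either. USCs medium library 3 stood above the other medium libraries in these genes, with 12.3 CPM of Lyz2 against 2.31 and 0.992, 32 counts of Adgre1 against 2 and 2, and 15 counts of C1qb against 0 and 0. Without that library the difference of medium from aging RGCs was 4.18 on the log2 scale for Lcn2 and 6.11 for Serpina3n, close to the values with it given for each gene. Neutrophil markers, relevant because neutrophils store lipocalin 2, summed to at most 0.173 CPM, with 6 of 8 at 0, and hepatocyte markers to at most 0.608 CPM, with Ahsg, Ttr and Cyp2e1 at 0. The part of these marker genes in the differences below was not tested. In such bulk samples, a change in the share of one cell type and a change in RNA per cell cannot be told apart.

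Lcn2 (chromosome 2, 32384633 to 32388252, minus strand, GRCm38) was low without USCs medium and high with it. The normal libraries gave 7.8, 7.22 and 7.55 CPM, the aging libraries 5.03, 4.33 and 3.65, and the USCs medium libraries 74.6, 81.7 and 80.6. All 3 groups were separate, with aging RGCs lowest. The means were 7.52 ± 0.289, 4.33 ± 0.692 and 79.0 ± 3.84 CPM (SD, n = 3 each). By the edgeR fit of all 9 libraries, Lcn2 was 1.74-fold lower in aging than in normal RGCs (log2 fold change -0.80, standard error 0.117) and 18.3-fold higher with USCs medium than in aging RGCs (log2 fold change 4.19, standard error 0.0866). The latter was the difference of rank 8 from the top among the 12145 genes tested. Against normal RGCs the medium-treated cells were 10.5-fold higher (log2 fold change 3.39, standard error 0.0772), and the lowest medium library lay above the highest normal one.

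Serpina3n (chromosome 12, 104406729 to 104414329, plus strand) was nearly undetected without USCs medium. Its counts were 3, 2 and 1 in the normal libraries, 7, 2 and 5 in the aging libraries and 305, 377 and 364 in the USCs medium libraries. In CPM these were 0.0921 ± 0.0405, 0.245 ± 0.138 and 17.7 ± 1.74 (SD, n = 3 each). The normal and aging libraries overlapped, and every medium library was far above both. The fitted difference between medium and aging was 71.0-fold (log2 fold change 6.15, standard error 0.234), rank 3 of all genes tested, and that between medium and normal was 177-fold (log2 fold change 7.47, standard error 0.266), rank 1. Because the lower groups rest on 14 and 6 reads in all, the ratio of summed counts, corrected for depth, carried wide intervals: 72.8 for medium against aging (exact 95% interval 43.2 to 134) and 189 for medium against normal (86.4 to 515). For aging against normal the same ratio was 2.59 (0.935 to 8.22), an interval that includes 1. These intervals cover counting error only. All 8 members passed the filter on low counts, Serpina3n through its medium libraries alone, so that it had to differ to be kept. On a log2(FPKM + 1) scale, which shrinks low genes, the medium against aging difference was 3.04.

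Cp (chromosome 3, 19957054 to 20009145, plus strand) was abundant in every group and differed modestly. Normal libraries gave 171, 137 and 175 CPM, aging libraries 138, 135 and 149, and USCs medium libraries 228, 233 and 248. Normal and aging values overlapped, and the medium values lay above all others. The means were 161 ± 20.6, 141 ± 7.29 and 236 ± 10.3 CPM (SD, n = 3 each). Cp was 1.68-fold higher with medium than in aging RGCs (log2 fold change 0.75, standard error 0.0574) and 1.47-fold higher than in normal RGCs (0.55, standard error 0.0565). An annotated exon stretch of 108 bases of Cp is shared with Hps3 on the other strand, and the sources used here do not say whether counting used strand.

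**Figure D1:**
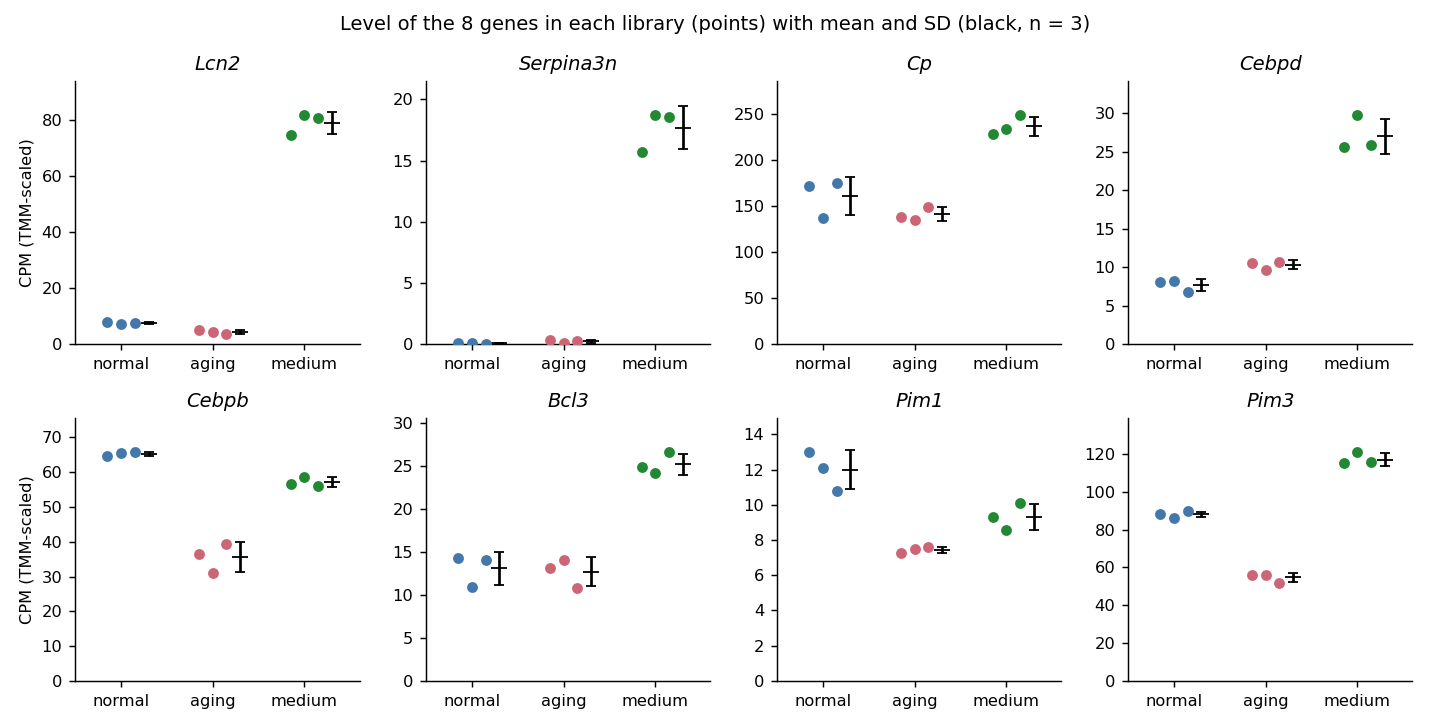
CPM (TMM-scaled, linear axes from 0, a separate scale for each gene) of the 8 genes in the 9 libraries, coloured by group (medium stands for aging RGCs + USCs medium); black marks give mean and SD, n = 3. Lcn2 reaches 74.6 to 81.7 CPM with USCs medium against at most 7.8 without it, while Cebpb and Pim1 are highest in normal RGCs.

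Cebpd and Cebpb, partners in the same family, differed between groups in unlike ways. Cebpd (chromosome 16, 15887286 to 15891031, plus strand, a single exon) gave 8.1, 8.14 and 6.81 CPM in normal libraries, 10.6, 9.63 and 10.7 in aging libraries and 25.6, 29.7 and 25.9 with USCs medium. The groups did not overlap and stepped upward from normal to aging to medium. Its means were 7.68 ± 0.757, 10.3 ± 0.602 and 27.0 ± 2.29 CPM (SD, n = 3 each), a log2 fold change of 0.42 (standard error 0.107) for aging against normal, of 1.39 (standard error 0.0928, 2.62-fold) for medium against aging and of 1.81 (standard error 0.0954, 3.51-fold) for medium against normal. Cebpd was the sole member with fractional counts, in 8 of 9 libraries. It shares 562 annotated exon bases with Spidr on the other strand, a DNA repair gene whose counts were fractional in the same number of libraries. Spidr was at 33.1 to 36.5 CPM in normal libraries, 34.0 to 35.8 in aging and 37.7 to 45.7 with medium, a log2 fold change of 0.30 for medium against aging, against 1.39 for Cebpd. How many Cebpd reads come from Spidr was not tested.

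Cebpb (chromosome 2, 167688915 to 167690418, plus strand, a single exon) was instead lowest in aging RGCs. The normal libraries gave 64.7, 65.5 and 65.8 CPM, the aging libraries 36.6, 31.0 and 39.5, and the USCs medium libraries 56.5, 58.7 and 56.1. All groups were separate, and the medium values came near, but not up to, the normal ones. With means of 65.3 ± 0.556, 35.7 ± 4.34 and 57.1 ± 1.39 CPM (SD, n = 3 each), Cebpb was 1.83-fold lower in aging than in normal RGCs (log2 fold change -0.87, standard error 0.062), 1.60-fold higher with medium than in aging RGCs (0.68, standard error 0.0632) and 1.14-fold lower with medium than in normal RGCs (-0.19, standard error 0.0587). It shares 312 exon bases with Tmem189 on the other strand. The ratio of Cebpb to Cebpd in FPKM (fragments scaled to transcript length and library size) had a median of 20.0 in normal libraries (19.8 to 23.9), 8.62 in aging libraries (8.01 to 9.18) and 5.41 with medium (4.92 to 5.51). The balance between the pair thus shifted toward Cebpd at each step, and no library of one group reached the range of another.

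Bcl3 (chromosome 7, 19808462 to 19822770, minus strand) overlapped between normal and aging RGCs and was higher with USCs medium. Its levels were 14.3, 10.9 and 14.0 CPM in normal libraries, 13.1, 14.1 and 10.8 in aging libraries and 24.9, 24.2 and 26.6 with medium. The first 2 groups overlapped, with means of 13.1 ± 1.92 and 12.7 ± 1.70 CPM, and the third stood apart at 25.2 ± 1.21 CPM (SD, n = 3 each). Bcl3 was 1.99-fold higher with medium than in aging RGCs (log2 fold change 1.00 after rounding, standard error 0.0999), just under the 2-fold threshold. Leaving out each library in turn gave values on both sides of the threshold, from 0.89 without aging library 3 to 1.08 without aging library 2. An antisense gene, Gm16175, overlaps its exons in the annotation and was not analysed here.

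The PIM kinase genes were both lower in aging than in normal RGCs, and they parted with USCs medium. Pim3 (chromosome 15, 88862186 to 88865726, plus strand) gave 88.1, 86.4 and 89.6 CPM in normal libraries, 56.2, 56.0 and 52.0 in aging libraries and 115, 121 and 116 with medium. No library of one group fell within another, and the medium values exceeded the normal ones. The means were 88.0 ± 1.57, 54.7 ± 2.36 and 117 ± 3.47 CPM (SD, n = 3 each), a log2 fold change of -0.69 (standard error 0.0458, 1.61-fold lower) for aging against normal, of 1.10 (standard error 0.0451, 2.15-fold, and 0.99 on log2(FPKM + 1), just under 2-fold) for medium against aging and of 0.42 (standard error 0.0426) for medium against normal.

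Pim1 (chromosome 17, 29490753 to 29496112, plus strand) gave 13.0, 12.1 and 10.8 CPM in normal libraries, 7.25, 7.47 and 7.6 in aging libraries and 9.3, 8.58 and 10.1 with medium. The groups were separate here too, but the medium values stayed between the other groups. Its means were 12.0 ± 1.12, 7.44 ± 0.176 and 9.32 ± 0.753 CPM (SD, n = 3 each), a log2 fold change of -0.69 (standard error 0.113) for aging against normal, of 0.33 (standard error 0.117) for medium against aging and of -0.36 (standard error 0.109) for medium against normal. On log2 FPKM the difference of medium from aging was only 0.09 to 0.11, depending on the pseudocount. Gm26885, an antisense gene not analysed here, shares exon bases with Pim1. The FPKM of Pim3 was 7.39 times that of Pim1 at the median of the normal libraries, 7.16 times in aging libraries and 13.8 times with medium. Normal (7.32 to 8.08) and aging (6.56 to 8.23) ratios overlapped, and those with medium (12.3 to 15.1) lay above both. Pim2, the family member left out of the set, was at 9.35 ± 0.313, 11.5 and 8.67 ± 0.247 CPM in the same order of groups. It rose in aging RGCs (log2 fold change 0.30, edgeR adjusted p = 0.0217) and fell with medium (-0.41, adjusted p = 0.0022), opposite in sign to Pim3 in both comparisons.

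**Figure D2:**
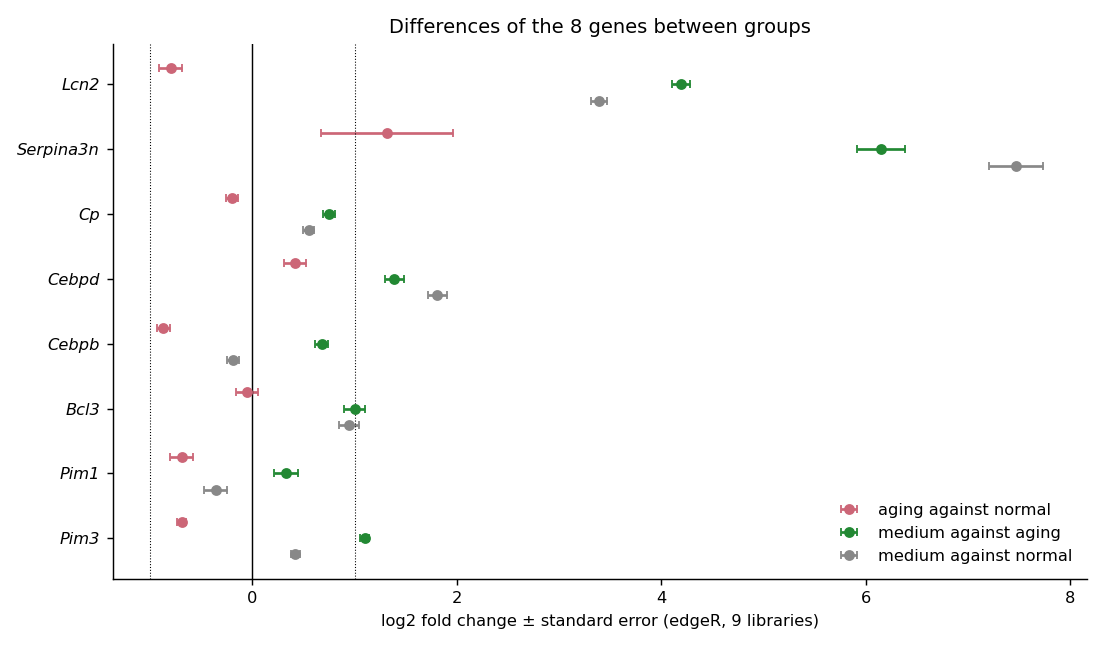
Log2 fold change (x axis, edgeR fit of 9 libraries, bars are standard errors) of the 8 genes for aging against normal RGCs, USCs medium against aging RGCs and USCs medium against normal RGCs; the dotted lines stand at 2-fold. With USCs medium all 8 genes lie to the right of 0 relative to aging RGCs, from 0.33 for Pim1 to 6.15 for Serpina3n.

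Across the set, the medium against aging contrast, which was used to choose the genes, placed 4 of 8 members (Lcn2, Serpina3n, Cebpd and Pim3) past both an adjusted p of 0.05 and 2-fold higher, where 1.24% of the 12145 genes tested were called higher and 4.21% lower. At any size of change all 8 were past the adjusted p as higher, where 27.1% of genes were higher and 26.0% lower. For aging against normal, no member was past both thresholds, where 1.09% of genes were called higher and 1.56% lower. At any size 1 member was higher (Cebpd) and 5 were lower (Lcn2, Cp, Cebpb, Pim1 and Pim3), against 23.6% and 23% (2788) of all genes. For medium against normal, 3 members were past both thresholds as higher (Lcn2, Serpina3n and Cebpd), against 1.47% of genes, and none as lower, against 5.24%. At any size 6 were higher and 2 lower (Cebpb and Pim1), against 30.6% and 29.9% of all genes. The median log2 fold change of the 8 was -0.44, 1.05 and 0.75 in the order aging against normal, medium against aging and medium against normal, where the medians of all genes tested were 0.002, -0.007 and -0.013. Since the genes were chosen on these contrasts, nothing is read from the counts. Serpina3n also passed the filter on low counts through its medium libraries alone, so its place in these counts is no test result.

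Levels of different genes can be compared only per length, in FPKM. In normal RGCs Cp ranked first of the 8 at 48.1 ± 8.54 FPKM (SD, n = 3), ahead of Cebpb at 44.7 ± 0.183 and Pim3 at 37.3 ± 0.588. Lcn2 followed at 8.46 ± 0.345 and Bcl3 at 7.54 ± 1.22, then Pim1 at 4.91 ± 0.214 and Cebpd at 2.12 ± 0.214. Serpina3n was last at 0.0467 ± 0.0252 FPKM. Cp and Cebpb, and likewise Lcn2 and Bcl3, did not differ beyond their SDs. In aging RGCs the order was Cp (40.5 ± 4.73), Cebpb (24.0 ± 2.91), Pim3 (22.8 ± 1.04), Bcl3 (7.26 ± 0.914), Lcn2 (4.80 ± 0.785), Pim1 (3.14 ± 0.243), Cebpd (2.79 ± 0.162) and Serpina3n (0.12 ± 0.07), and the SDs of Cebpb and Pim3 and of Pim1 and Cebpd overlapped.

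With USCs medium Lcn2 became the highest member at 82.8 ± 4.23 FPKM, at the 92.7th percentile of all genes tested, where it had stood at the 42.3rd percentile in normal and the 30.1st in aging RGCs. Cp followed at 63.0 ± 3.75 FPKM, Pim3 at 46.4 ± 1.33, Cebpb at 36.4 ± 0.807 and Bcl3 at 13.5 ± 0.691. Serpina3n rose from last place to the sixth at 8.22 ± 0.829 FPKM, from the 1.07th percentile in aging RGCs to the 43.6th. Cebpd followed at 6.92 ± 0.582, its SD range just meeting that of Serpina3n, and Pim1 was last at 3.41 ± 0.302. The ratio of Cp to Lcn2 in FPKM was 6.05 at the median of the normal libraries (4.71 to 6.24), 7.46 in aging libraries (7.24 to 11.2) and 0.778 with medium (0.713 to 0.792). Lcn2 thus passed Cp in all 3 medium libraries and in no other library.

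**Figure D3:**
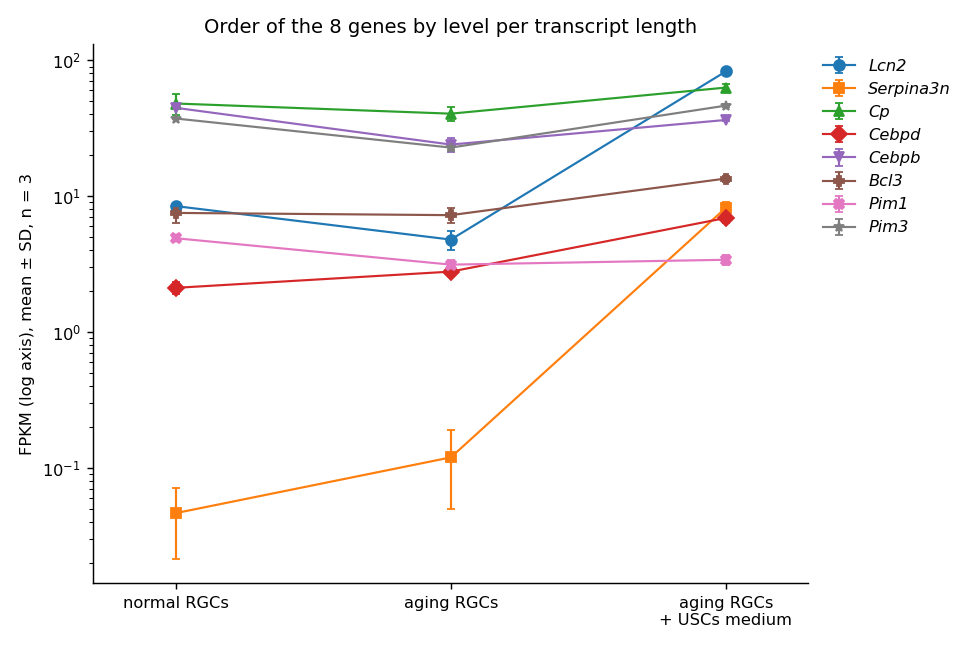
Mean FPKM (log axis, bars are SD, n = 3) of the 8 genes in the 3 groups; lines join the same gene and do not imply a time course. Lcn2 moves from 8.46 and 4.80 to 82.8 FPKM and crosses Cp, Cebpb and Pim3, while Serpina3n moves from 0.12 in aging RGCs to 8.22.

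For each member the genes with the most similar profile were found as those with the smallest root mean square difference of log2 CPM over the 9 libraries, each gene centred on its own mean. The log scale adds a small count to each value, which shrinks differences of genes near 0 counts. Pim3 had the closest profile of any, Zfp36 (0.0473 log2 units), the gene of an mRNA-destabilising protein, which went from 37.5 to 22.8 to 51.1 CPM from normal to aging to medium. Klf9 (0.0816) and Flot1 (0.0961) followed. Cp was nearest to Gclc (0.0603), which encodes the catalytic subunit of the enzyme that starts glutathione synthesis, then Pros1 (0.0671) and Ppm1d (0.095). Pim1 was nearest to F3 (0.0718), the tissue factor gene, then Arhgef2 (0.0793) and Klhdc10 (0.086). Cebpb was nearest to Sat1 (0.0781) and Atf4 (0.0857), a transcription factor of the integrated stress response, then Tmeff1 (0.097).

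The other members had looser neighbours. Cebpd was nearest to Csf3 (0.115), the gene of the cytokine G-CSF, which went from 8.13 to 12.1 to 26.5 CPM, then to Mfsd2a (0.185) and Tigit (0.189). Bcl3 was nearest to 1110008P14Rik (0.135), Hmgb3 (0.137) and B3galnt2 (0.145). Lcn2 and Serpina3n had no close neighbour. For Lcn2 the nearest was Orm1 at 0.545 log2 units, then Tubb3 (0.554) and Dsc3 (0.57). For Serpina3n it was its paralog Serpina3m at 0.84, then Clca3a1 (0.872) and Fam107a (1.13). Orm1 and Dsc3 were near 0 CPM without medium, so the added count weighs on their distances. Their fitted changes for medium against aging were 6.85 and 5.09, and that of Tubb3 3.03, against 4.19 for Lcn2. The neighbours of Serpina3n were near 0 CPM without medium as well. Lcn2 and Serpina3n themselves were 1.34 units apart, and the closest pair within the set was Cebpb and Pim1, at 0.197.

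Of the cluster of Serpina3 genes on chromosome 12, the expression table holds 10 within 302 kb, and Serpina3n lies at their end. Another listed paralog, Serpina3h, is not in it. Serpina3a, Serpina3b, Serpina3j and Serpina3k were at 0 in all 9 libraries. Serpina3m, whose annotated gene begins 68.2 kb before Serpina3n, had 2, 0 and 0 counts in normal libraries, 0, 0 and 1 in aging libraries and 70, 59 and 57 with USCs medium. Like Serpina3n, it was near 0 without medium and present in every library with it. The ratio of summed counts was 181 for medium against aging RGCs (exact 95% interval 32.1 to 7200, counting error only). Serpina3i had 7, 8 and 3 counts in normal libraries, 7, 9 and 8 in aging libraries and 50, 33 and 38 with medium. Both genes reached the level of the filter on low counts (0.498 CPM) in the medium libraries alone, so a gene of this kind had to differ to be tested, and no p-value is given for them. Serpina3c fell (-2.17, edgeR adjusted p = 8.72e-06), from 35, 31 and 36 counts to 10, 6 and 7. Serpina3g, at 4.5 to 6.42 CPM in the group means, did not pass the test (-0.14, adjusted p = 0.513), and Serpina3f was too low to be tested. Neighbours in the cluster thus went in both directions. These genes are close paralogs and the annotated span of Serpina3m covers Serpina3k, so reads can be assigned to the wrong copy, although the counts of all 10 were whole in every library.

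**Figure D4:**
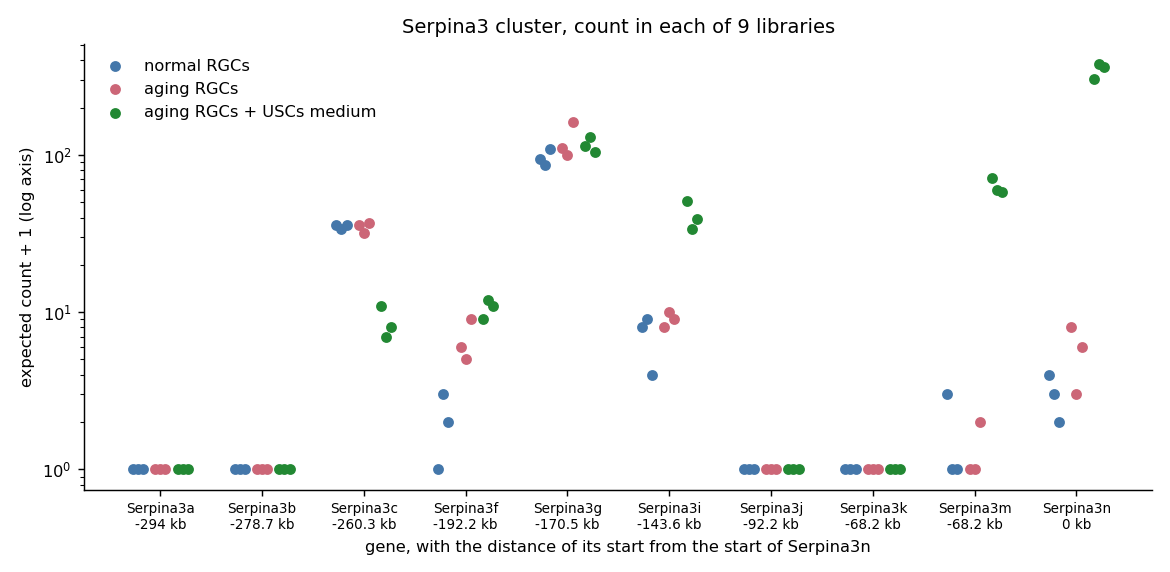
Expected count plus 1 (log axis) of the 10 Serpina3 genes of the expression table in each of 9 libraries. They are ordered along chromosome 12 and labelled with the distance of the gene start from that of Serpina3n in kb. Serpina3n, Serpina3m and Serpina3i are higher in the libraries with USCs medium, Serpina3c is lower, and 4 genes are at 0 counts throughout.

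For the lists of related genes that follow, the shares over all genes to read beside each count are those given above: past 2-fold, 1.24% higher and 4.21% lower for medium against aging and 1.09% and 1.56% for aging against normal, and at any size 27.1% and 26.0%, and 23.6% and 23%. The lists were small and their genes hand-picked, and no list was tested as a whole. Among 30 other secreted proteins and metallothioneins that rise in the acute phase, 13 were at 0 in all libraries and 7 were expressed well enough to be tested. With USCs medium 1 rose past 2-fold against aging RGCs and 1 fell, beside Orm1, which was testable through the medium libraries alone. The metallothionein gene Mt2 rose from 333 to 1150 CPM (log2 fold change 1.79, edgeR adjusted p = 8.99e-20). Orm1, which encodes an alpha-1 acid glycoprotein, had no count in any aging library and 17, 11 and 14 with medium, at least 13.6-fold higher against a floor of 3 counts over the group, and no p-value is given for it. Il1rn, the IL-1 receptor antagonist gene, fell (-1.08, adjusted p = 4.97e-07). In aging against normal RGCs 3 of the 7 rose past 2-fold, the complement gene C3 (1.14, adjusted p = 7.82e-14), Mt1 (1.27, adjusted p = 1.18e-19) and Serpina1e (1.73, adjusted p = 0.000333), and none fell as far. The well-known serum amyloid and haptoglobin genes were scarce: Saa3 averaged at most 0.921 CPM and Hp at most 0.302 CPM in any group. Of the 7 liver proteins that fall in the acute phase, and of 13 lipocalins and their receptors, Rbp4 alone could be tested, and with medium it did not pass (0.24, adjusted p = 0.145).

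Of 22 genes of iron and copper handling beside Lcn2 and Cp, 16 were tested, and with USCs medium 1 rose and 1 fell past 2-fold against aging RGCs, with a median log2 fold change of 0.07. Steap1, a gene of the metalloreductase family, rose (1.24, edgeR adjusted p = 4.59e-14). Slc40a1, which encodes ferroportin, the iron exporter that ceruloplasmin serves, fell from 1.51 to 0.39 CPM (-1.94, adjusted p = 0.000491), so it was scarce in every group, at 2.14 ± 0.371 CPM in normal RGCs. Its fall was -2.55 without USCs medium library 3, and on log2(FPKM + 1) it was -0.38, under 2-fold. Smaller changes past the adjusted p included a fall of the transferrin receptor gene Tfrc (-0.94, adjusted p = 9.23e-20) and rises of the metal importer Slc39a14 (0.97, adjusted p = 6.19e-17) and of ferritin heavy chain Fth1 (0.50, adjusted p = 5.48e-13), while ferritin light chain Ftl1 fell (-0.25, adjusted p = 3.19e-06). In aging against normal RGCs none of the 16 reached 2-fold.

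Of 8 tested genes of the C/EBP family and its partner proteins, 2 in aging against normal RGCs fell past 2-fold, Ddit3 (-1.62, edgeR adjusted p = 5.72e-14), which encodes the C/EBP protein CHOP, and Trib3 (-1.78, adjusted p = 6.15e-20), a pseudokinase gene of the same stress pathway. At any size 5 of the 8 fell and 2 rose, with a median of -0.58, where 23% of all genes fell and 23.6% rose. With USCs medium Trib3 rose past 2-fold (1.13, adjusted p = 2.85e-15), and at any size 6 rose and 2 fell, with a median of 0.55, where 27.1% of all genes rose and 26.0% fell. Atf4 stood at 643 ± 28.8 CPM in the normal, 334 ± 5.12 in the aging and 545 ± 23.1 in the medium libraries, a fall (-0.94, adjusted p = 2.31e-18) and then a rise (0.71, adjusted p = 1.37e-15). Trib2 was 2-fold or more lower with medium than in normal RGCs (-1.13, adjusted p = 1.16e-11).

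Among 9 tested genes of NF-kB and I-kB proteins, the family of Bcl3, none changed past 2-fold in aging RGCs, and with USCs medium only Nfkbie, an I-kB gene, did. It fell (-1.10, edgeR adjusted p = 9.56e-09), opposite to Bcl3. Nfkbiz, which encodes an atypical nuclear I-kB protein like that of Bcl3, went from 68.7 ± 3.16 to 86.4 ± 4.02 CPM (0.33, adjusted p = 1.98e-06). Nfkbia, the classical feedback inhibitor, did not pass the test (-0.06, adjusted p = 0.374). The list's median was -0.06.

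The receptor genes upstream of STAT3 changed in opposite directions with USCs medium. Osmr, which encodes the specific chain of the oncostatin M receptor, gave 24.9, 30.2 and 25.9 CPM in normal libraries, 12.0, 10.6 and 12.5 in aging libraries and 80.1, 77.3 and 80.9 with medium. Its groups were separate in the order that Lcn2 and Pim3 also showed, lowest in aging and highest with medium. It fell in aging RGCs (log2 fold change -1.21, edgeR adjusted p = 1.07e-12) and rose with medium (2.77, adjusted p = 1.21e-21). Lifr, the receptor gene for leukaemia inhibitory factor, fell with medium (-1.24, adjusted p = 8.66e-13). Stat3 itself fell in aging RGCs (-0.34, adjusted p = 2.23e-08) and rose with medium (0.47, adjusted p = 2.78e-11), and the shared chain Il6st rose with medium (0.34, adjusted p = 3.33e-09). Of 15 tested genes of the list, 8 rose and 4 fell at any size with medium, with a median of 0.18. The list also holds receptor genes of IL-1 and TNF, which act through NF-kB. These were among the 8 that rose: Il1r1 (0.36), Il1rap (0.53) and Tnfrsf1a (0.21). Over all genes 27.1% rose and 26.0% fell, so the share of the list that fell was near that of all genes. Of 9 tested genes of the ligands, transcribed by the cells themselves, none rose and 3 fell at any size with medium, Lif among them past 2-fold (-1.14, adjusted p = 1.21e-10), with Il11 (-0.98, adjusted p = 7.27e-06) and Il1a (-0.84, adjusted p = 0.0118). Il6 stood at 0.573 CPM in aging RGCs and 0.526 with medium, and neither it (adjusted p = 0.835) nor Tnf (adjusted p = 0.137) passed the test. Proteins carried in the conditioned medium were not measured here.

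Of 15 tested genes listed here as STAT3 feedback and target genes, 3 rose past 2-fold with USCs medium and none fell. At any size 9 rose and 1 fell, with a median of 0.20. Whether STAT3 drives each listed gene in these cells was not tested. Over all genes 1.24% rose and 4.21% fell past 2-fold, and 27.1% rose and 26.0% fell at any size. Socs3, the feedback inhibitor of IL-6 receptors, gave 37.2, 33.4 and 37.0 CPM in normal libraries, 24.7, 27.3 and 27.1 in aging libraries and 95.8, 95.7 and 95.5 with medium. It fell in aging RGCs (-0.44, edgeR adjusted p = 7.74e-07) and rose with medium (1.86, adjusted p = 1.44e-20) to above the normal level. Socs2 fell in aging RGCs (-1.13, adjusted p = 1.51e-09) and rose with medium (1.21, adjusted p = 2.83e-10). Fos, at 2.32 CPM in aging RGCs, rose to 4.83 CPM (1.05, adjusted p = 6.56e-05), a call that dropped under 2-fold without aging library 1 (0.95) or without USCs medium library 2 (0.91). Junb (0.83, adjusted p = 1.51e-13) and Timp1 (0.82, adjusted p = 1.33e-13) rose by less than 2-fold. Myc (0.19, adjusted p = 0.194) and Bcl6 (0.20, adjusted p = 0.0973) did not pass.

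Because Lcn2 and Serpina3n are known as genes of reactive astrocytes, 3 lists of such genes were also examined. Of 7 tested pan-reactive genes, Osmr rose past 2-fold with USCs medium and Cxcl10 fell (-1.08, edgeR adjusted p = 0.000704), and 2-fold was missed for Cxcl10 without aging library 1 (-0.99). Hspb1 rose by 0.73 (adjusted p = 5.59e-09), Vim did not pass (-0.03, adjusted p = 0.485), and Gfap was at or near 0 in every library, so too low to test. None of 9 tested A1 genes changed past 2-fold in aging against normal or medium against aging RGCs, and Serping1, a complement inhibitor gene, was lower with medium than in normal RGCs (-1.81, adjusted p = 0.000501). Among 9 tested A2 genes Sphk1, a sphingosine kinase gene, rose past 2-fold with medium (2.65, adjusted p = 5.02e-11), from 1.14, 1.65 and 1.77 CPM in aging libraries to 7.45, 9.83 and 11.6. Tgm1 had 4, 4 and 6 counts in normal libraries, 0, 2 and 7 in aging libraries and 19, 21 and 25 with medium, and as it was testable through the medium libraries alone no p-value is given. Its log2 fold change of 2.77 was 4.23 without aging library 3 and 0.39 on log2(FPKM + 1). Ptgs2, which encodes cyclooxygenase 2, fell in aging RGCs (-1.44, adjusted p = 4.48e-21) from 541 to 199 CPM. The medians with medium were 0.73, 0.08 and 0.19 for the pan-reactive, A1 and A2 lists.

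**Figure D5:**
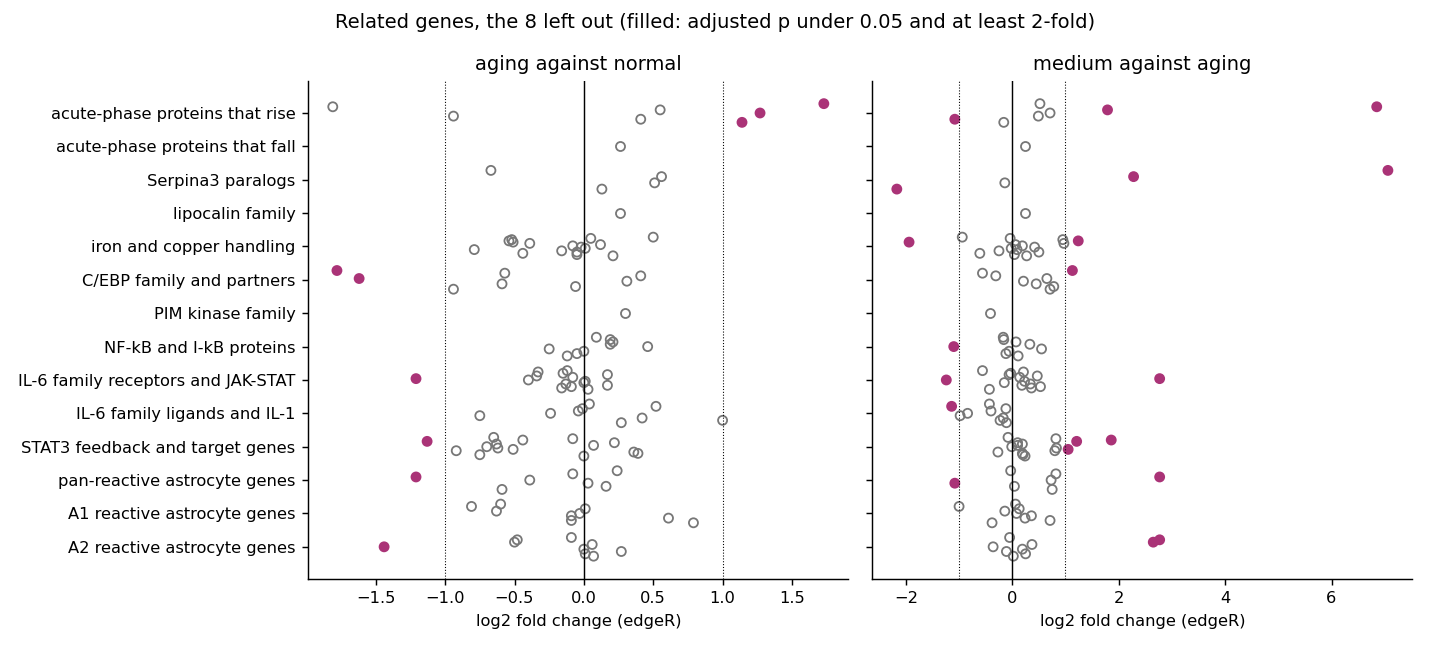
Log2 fold change (x axis, edgeR) of each tested gene in 14 lists of related genes, the 8 members left out, for aging against normal RGCs and for USCs medium against aging RGCs; each point is a gene, filled where the adjusted p is under 0.05 and the change at least 2-fold. In the right panel the points farthest to the right are Serpina3m (7.06) and Orm1 (6.85), both near 0 counts without medium. Serpina3m, Orm1, Serpina3i and Tgm1 are filled but were testable through the medium libraries alone, so their fill is no test result.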

How the data were processed

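Polyadenylated RNA of 9 mouse culture libraries was sequenced, 3 per group, with groups taken from the labels. The authors deposited a gene table with expected counts and FPKM (fragments scaled to transcript length and library size); the build per the labels is mm10, and the sources used here give no aligner or counter. Between 6.92% and 7.38% of counts were not whole, so counts were rounded. Genes at low counts were dropped by filterByExpr (12145 of 22322 kept), and edgeR 4.0.16 (R 4.3.3) quasi-likelihood tests used TMM factors (0.956 to 1.03), 1 mean per group over all 9 libraries and 6 residual degrees of freedom. A gene was called at a Benjamini-Hochberg adjusted p under 0.05 over all genes tested and a log2 fold change of at least 1. These p-values measure the spread between wells, which may be technical. The steps were tested on simulated data. CPM served within genes and the deposited FPKM between genes.

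The 8 members and the 14 related and 5 marker lists were chosen with earlier results of these data known. Named genes were all members, of each list up to 5 called genes by size of change whose average log2 CPM was 0 or more, and the 3 nearest profiles per member; others were added where a sentence needed them (such as Orm1, Tgm1, Adgre1 and C1qb, which are below that level). Coordinates come from GENCODE M21 (GRCm38), promoters from RefSeq. Alternatives were DESeq2 1.42.0, limma 3.58.1 on log2(FPKM + 1) or log2(FPKM + 0.1), other factors and filters, a replicate block, and leaving out each library. Samples with the same replicate number did not deviate together, which gives no sign of pairing, so the main fit did not use the numbers as pairs. No 2 libraries agreed within sampling noise.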

Additional observations from a re-analysis of the deposited data

How the results depend on the processing

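No direction of a called result reversed under the alternatives. Of the alternative values of the 8 members' fold changes, 424 moved by less than the spread between replicates and 31 by more. Of those of called list genes, 1019 kept the call and 56 lost it, most of them with log2(FPKM + 1), a scale that understates changes of low genes by its construction. Among the calls given above, that scale took those of Adgre1, C1qb, Csf1r, Osmr, Serpina1e and Socs2 for aging against normal. For medium against normal it took those of Serping1 and Il1a. For medium against aging it took those of Cxcl10, Fos, Il1rn, Lifr, Nfkbie, Slc40a1, Socs2 and Serpina3c. Calls not given above were lost there too. They were Adgre1 and C1qb for medium against aging, and Adgre1, Csf1r, Cxcl10, Serpina1e, Slc40a1 and Serpina3c for medium against normal. Leaving out each library gave 0.88 to 4.28 for Adgre1 and 0.0 to 5.97 for C1qb in medium against aging. Neither call thus held in every such fit, and the medium counts of C1qb were all in library 3. On log2(FPKM + 1), Serpina3i, Orm1 and Tgm1 also came under 2-fold in both comparisons with medium. These 3 genes were testable through the medium libraries alone, so their calls, included in the counts of kept and lost calls, are no result. On that scale the genes called higher and lower were 19 and 47 for aging against normal, 53 and 76 for medium against aging, and 62 and 167 for medium against normal, and with log2(FPKM + 0.1) those higher for medium against normal were 119. With no fold threshold they were 2861 and 2788, 3292 and 3154, and 3716 and 3634, and the members past the threshold were 1 higher and 5 lower, 8 higher, and 6 higher and 2 lower. Leaving out each library gave 124 to 145 higher and 175 to 217 lower for aging against normal, 143 to 162 and 483 to 535 for medium against aging, and 173 to 189 and 614 to 702 for medium against normal. Members past both thresholds then ranged from 0 to 1, from 4 to 5 and from 3 to 4 higher in the same order. For medium against aging the members were 3 on log2(FPKM + 1), where Pim3 fell to 0.99 and lost the call, and 5 in DESeq2 and with no filter on low counts. Serpina3n was the member gained without aging library 2, where its difference from normal RGCs was 1.68. With all libraries the interval of its ratio for aging against normal, 0.935 to 8.22, included 1. Nothing is read from that gain, since the gene passed the filter on low counts through its medium libraries alone. Il1a, lower with medium than in normal RGCs (-1.09), missed 2-fold without normal library 1 (-0.97), normal library 2 (just under it) or medium library 2 (-0.92). Without TMM factors Fos missed it too (0.98). The fit with the replicate number as a block gave 129 and 189, 150 and 507 genes in the first and second comparison, 180 and 629 in the third, and the same counts of members. Libraries sharing a number showed correlations of their deviations from -0.076 to 0.07, which gives no sign of pairing. Depth limits the members at the low end: Serpina3n without medium rests on 1 to 7 reads a library.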
